A study of Mus musculus with 8 samples.

Results

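Among single-cell barcodes from MC38 tumours that carried CD8 T cell RNA, a subset also carried macrophage RNA, and those barcodes are described here. MC38 is a colon carcinoma line of mouse origin, here grown in wild-type C57BL/6 hosts. Members were selected on measured UMIs: a barcode was counted as mixed if it had at least 500 detected genes, under 10% mitochondrial UMIs, at least 2 UMIs of Cd3d, Cd3e and Cd3g together, at least 1 UMI of Cd8a and Cd8b1, and at least 5 UMIs summed over Lyz2, C1qa, C1qb, C1qc and Csf1r. A UMI (unique molecular identifier) counts a captured RNA molecule. In all, 3919 barcodes met this rule, of 24061 in the experiment that was searched and 36011 in the whole series. They were compared with T-only barcodes, which passed the same T cell gate with 0 or 1 UMIs of the same 5 myeloid genes.

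Both groups were mice with palpable MC38 tumours given rhIL-7-hyFc, recombinant human IL-7 (a T cell growth and survival cytokine) joined to a hybrid Fc that prolongs its action, subcutaneously at 1.25 mg/kg. The combination group also received, intravenously from day 3 after rhIL-7-hyFc, a T cell engager that binds mouse PD-L1 and CD3ε. Tumours were taken 24 h after the last treatment, and live CD45+ TCRβ+ CD8a+ cells were sorted by flow cytometry before 10x Genomics 5′ gene expression and T cell receptor libraries were made. Each group was 1 library, the number of mice behind it is not given in the labels, and no difference between the groups has a replicate check. Intervals below are exact 95% intervals and cover counting error only.

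CD8 T cells recognise peptides on MHC class I through a T cell receptor of an α and a β chain, which signals through the CD3 proteins. Tumour macrophages take up debris and antibody-coated targets, secrete chemokines, make the complement component C1q and present peptides on MHC class II to CD4 T cells. PD-L1, encoded by Cd274, is the ligand of the inhibitory receptor PD-1 (Pdcd1) and is made by macrophages as well as tumour cells. A droplet barcode tags all RNA captured in its droplet, so a barcode is not in every case a single cell. Whether the T and macrophage RNA of a barcode came from separate cells, from a cell with material of another, or from free RNA was not tested.

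The 4 genes that stand for the rule lie on separate chromosomes of GRCm38: Cd3e, a signalling chain of the receptor, at chr9:44998740-45009627, Cd8a, the coreceptor chain, at chr6:71373427-71379173, Lyz2, the myeloid lysozyme, at chr10:117277331-117282321, and C1qa, a C1q chain, at chr4:136895917-136898803 (GENCODE M21). These are whole gene bodies.

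The rule found 3218 mixed barcodes among 10839 T-gated barcodes in the rhIL-7-hyFc library, or 29.7% (28.8 to 30.6). In the combination library it found 701 among 10894, or 6.43% (5.98 to 6.91). The share was 4.61 times as high in the rhIL-7-hyFc library as in the combination library. It was 7.46 times as high among barcodes with a β contig only (17.3% and 2.32%), and 7.78 times without the 5% of barcodes with most UMIs (26.4% and 3.39%). Those 5% were cut at each library's own UMI limit among T-gated barcodes, and mixed barcodes were the deeper class. The cut thus took a larger part of the mixed barcodes in the combination library, where they were fewer, which raises the ratio. T-only barcodes numbered 7167 and 10141, and 454 and 52 barcodes lay between the classes with 2 to 4 myeloid UMIs. Because the sort selected TCRβ+ CD8a+ cells, these shares describe the sorted fraction and not the tumour. The libraries held 12560 and 11501 barcodes and 118191371 and 92863323 UMIs. Across them 195 barcode sequences occurred in both, 58 of which were mixed in at least 1 library; of the 71 with a β contig in both, 0 shared a β chain. Without those 195 barcodes the shares were 29.7% and 6.43%.

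**Figure D1:**
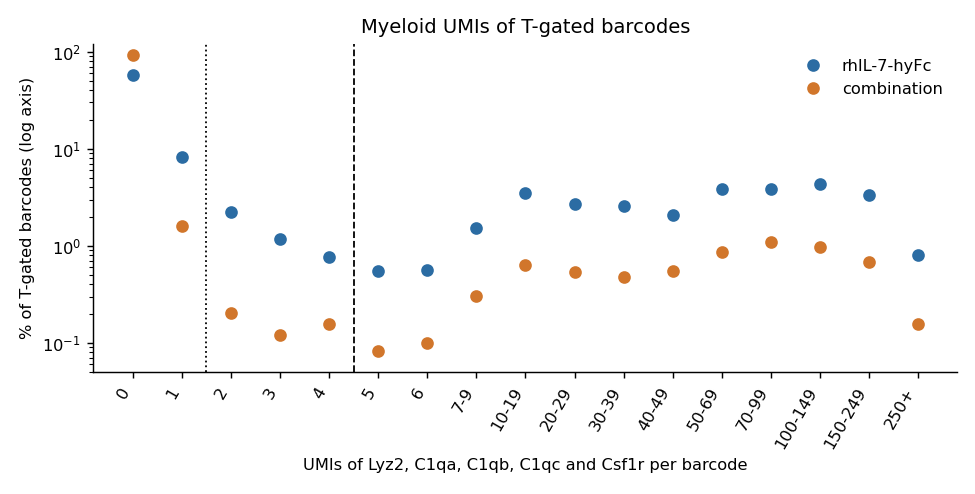
Percent of T-gated barcodes (points, log axis) by their UMIs of Lyz2, C1qa, C1qb, C1qc and Csf1r, in bins that widen above 6 UMIs, for the rhIL-7-hyFc and combination libraries. The dotted line ends the T-only class and the dashed line starts the mixed class; 57.9% of rhIL-7-hyFc and 91.5% of combination barcodes had 0 such UMIs.

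The myeloid UMIs of T-gated barcodes had a broad upper range rather than a tail beside the threshold. In the rhIL-7-hyFc library 6277 of the T-gated barcodes had 0 myeloid UMIs and 890 had 1, while mixed barcodes had a median of 56, with quartiles of 24 and 108 and a highest value of 613. In the combination library 9968 had 0 and 173 had 1, and mixed barcodes had a median of 60, with quartiles of 28 and 109 and a highest value of 461. The medians of the mixed barcodes were thus alike in both libraries, although their share of barcodes was not. Just inside the threshold, at 5 or 6 myeloid UMIs, lay 121 and 20 barcodes, with medians of 75 and 33 UMIs over 18 further macrophage genes. Just outside, at 3 or 4, lay 211 and 30 barcodes, with medians of 25 and 17.5 UMIs over those genes.

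Most mixed barcodes held several of the 5 myeloid genes. RNA of Lyz2 and of at least 1 C1q chain was present in 67.9% of them in the rhIL-7-hyFc library and 67.0% in the combination library. Lyz2 without C1q was found in 27.0% and 31.0%, C1q without Lyz2 in 5.10% and 2.00%, and all 5 genes in 38.3% and 32.8%. The balance of the genes differed between the libraries: mixed barcodes had 0.889 Lyz2 UMIs per C1q UMI in the rhIL-7-hyFc library and 1.74 in the combination library. For comparison, barcodes with at least 5 myeloid UMIs and 0 UMIs of all 5 Cd3 and Cd8 genes, 644 and 72 in number and called myeloid barcodes below, had 3.57 and 15.0. Mixed barcodes were thus 5.00 and 9.74 times as many as myeloid barcodes in these libraries.

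Mixed barcodes were deeper than T-only and myeloid barcodes. In the rhIL-7-hyFc library their median was 16949.5 UMIs, against 5474 in T-only and 5581 in myeloid barcodes. In the combination library the medians were 19673, 6468 and 5938 UMIs. The sum of the T-only and myeloid medians, 11055 and 12406 UMIs, lay below the mixed median in both libraries. Median detected genes were 3915.5 in mixed against 1900 in T-only barcodes with rhIL-7-hyFc, and 4120 against 2162 with the combination. Of the mixed barcodes, 62.4% and 66.2% had more UMIs than the 95th percentile of T-only barcodes (14264.8 and 15514 UMIs). The most shallow mixed barcodes had 1035 and 1239 UMIs, so the ranges of the classes overlapped. Median mitochondrial shares were 0.853% in mixed and 0.887% in T-only barcodes with rhIL-7-hyFc, and 0.809% and 0.856% with the combination.

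**Figure D2:**
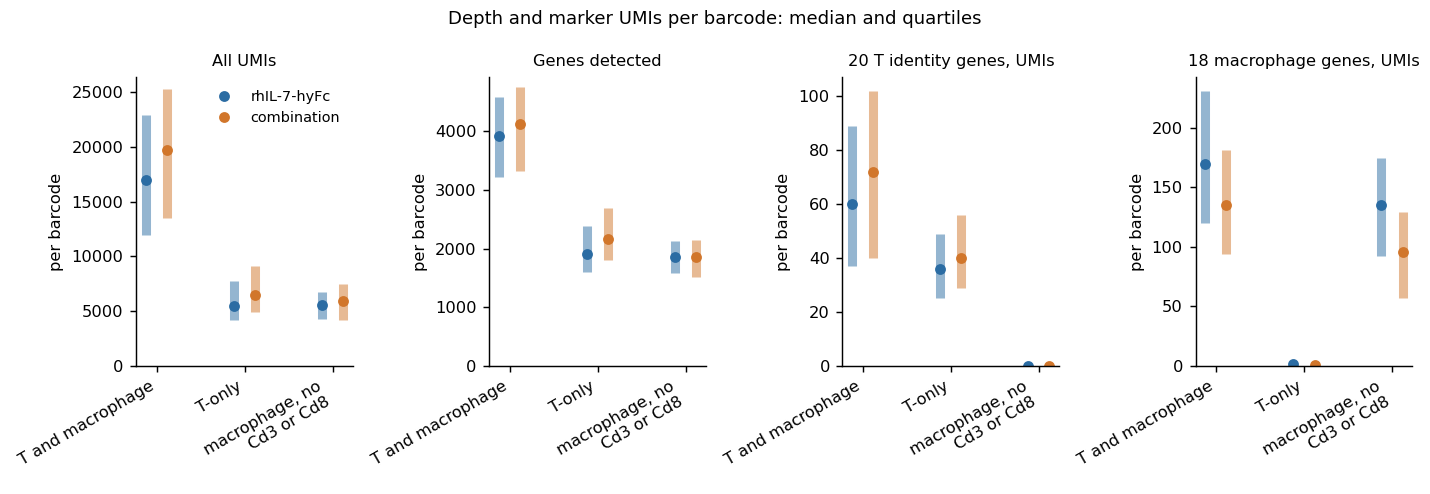
Median (point) and quartiles (bar) per barcode of all UMIs, detected genes, UMIs of 20 T cell identity genes and UMIs of 18 macrophage genes, by class and library. Mixed barcodes had medians of 16949.5 and 19673 UMIs and were high for both marker lists, while T-only and myeloid barcodes were high for 1 list each.

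Both markers of the label were present per barcode, and not only in the genes of the rule. Over 20 T cell identity genes outside the rule, such as Trac, Lck, Zap70 and Cd2, mixed barcodes had a median of 60 UMIs and T-only barcodes 36 with rhIL-7-hyFc, and 72 against 40 with the combination. Over 18 macrophage genes outside the rule, such as Apoe, Cd68 and Fcgr1, mixed barcodes had medians of 170 and 135 UMIs, T-only barcodes 2 and 1, and myeloid barcodes 135 and 95.5. The median mixed barcode held UMIs of 13 and 12 of these 18 macrophage genes and of 15 and 16 of the 20 T cell genes. After each barcode was thinned to 2000 UMIs, mixed barcodes had medians of 20 and 14 macrophage UMIs, against 0 in T-only barcodes of both libraries. The thinned T cell medians were 7 UMIs in mixed and 12 in T-only barcodes in each library. Thus a mixed barcode held more T cell UMIs in total and fewer per UMI sequenced than a T-only barcode.

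The T cell receptor of mixed barcodes was next read from the assembled contigs and from the Trbv genes, the variable segments of the β chain, in the expression matrix. A productive β contig was missing in 2032 of 3218 mixed barcodes, 63.1% (61.5 to 64.8), against 1751 of 7167 T-only barcodes, 24.4%, with rhIL-7-hyFc. With the combination it was missing in 516 of 701 mixed barcodes, 73.6% (70.2 to 76.8), against 2361 of 10141, 23.3%. This was so although the mixed barcodes held more receptor RNA: medians of 12 and 16 Trbv UMIs, against 7 and 10 in T-only barcodes. At least 2 different β chains were assembled in 6.09% of mixed and 5.60% of T-only barcodes with rhIL-7-hyFc, and in 5.56% and 7.31% with the combination. Among barcodes with a β contig the shares were 16.5% against 7.40%, and 21.1% against 9.52%.

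The expression matrix gave another picture of the same receptors. A T cell usually expresses a single productive β chain, so RNA of several Trbv subgroups (numbered families of Trbv genes, each with at least 2 UMIs) is counted here as a measure of receptor diversity in a barcode. At least 2 subgroups were present in 1618 mixed barcodes with rhIL-7-hyFc, 50.3% (48.5 to 52.0), against 13.9% of T-only barcodes. With the combination they were present in 446, 63.6% (59.9 to 67.2), against 16.5%. Without the 5% of barcodes with most UMIs the shares of mixed barcodes were 43.6% and 36.8%. At least 3 subgroups were present in 21.3% of mixed against 1.33% of T-only barcodes, and in 36.5% against 2.38%. Myeloid barcodes with at least 2 subgroups numbered 0 of 644 and 0 of 72. These were chosen for 0 Cd3 and Cd8 UMIs and had a median of 0 Trbv UMIs, so their counts are no contrast for receptor diversity.

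The difference was as large at matched receptor depth. With every barcode thinned to 8 Trbv UMIs, which leaves out shallower ones, at least 2 subgroups were found in 54.6% of 2136 mixed against 16.2% of 3461 T-only barcodes with rhIL-7-hyFc. With the combination the shares were 64.9% of 527 against 14.6% of 6249. Of the mixed barcodes with at least 2 subgroups, 1395 of 1618 and 416 of 446 had no β contig. In mixed barcodes without a β contig 68.7% and 80.6% had at least 2 subgroups, and in those with a contig 18.8% and 16.2%. Mixed barcodes without a β contig were also deeper, with medians of 20188 and 21899.5 UMIs and 57 and 66 Cd3 UMIs, against 12241 and 12605.5 UMIs and 27 and 26.5 Cd3 UMIs in those with 1 β chain. Of T-only barcodes without a contig 21.8% and 33.0% had at least 2 subgroups, and of those with a contig 11.3% and 11.5%, but most T-only barcodes with several subgroups had a contig, 612 of 993 and 898 of 1677. The leading Trbv gene was set against the contig only in barcodes with 1 β chain and a single leading gene of at least 2 UMIs. It was that of the contig in 89.3% of 795 and 90.4% of 135 such mixed barcodes. Among such T-only barcodes the shares were 88.6% of 4261 and 89.1% of 6412.

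**Figure D3:**
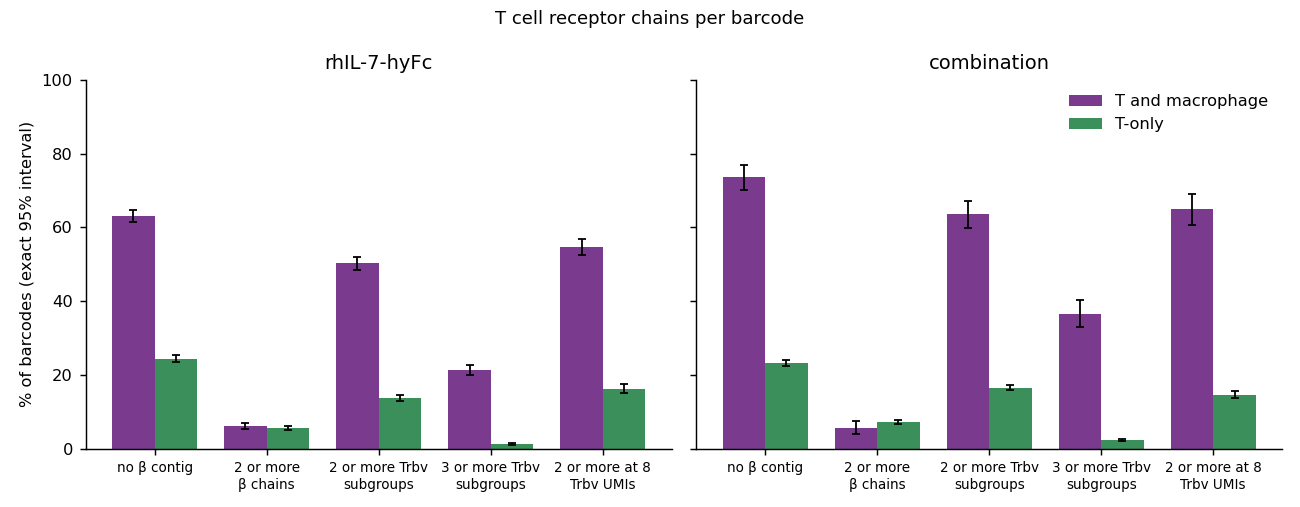
Percent of mixed and T-only barcodes without a β contig, with 2 or more assembled β chains, with 2 or more or 3 or more Trbv subgroups in the expression matrix, and with 2 or more at 8 Trbv UMIs; bars are shares and whiskers exact 95% intervals. Mixed barcodes stood above T-only barcodes in each library for missing contigs (63.1% and 73.6%) and for 2 or more Trbv subgroups (50.3% and 63.6%), while 5.56% to 7.31% of every class had 2 or more assembled chains.

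Clonotypes were sets of barcodes with a single β chain and identical α and β CDR3 sequences. A barcode without an α contig was matched only to others without an α contig. Mixed and T-only barcodes shared part of these clonotypes. A clonotype could be given to 990 mixed barcodes with rhIL-7-hyFc and to 146 with the combination, so those described here are the minority with 1 β chain. The CDR3 is the part of each chain that contacts the peptide. The 3 largest clonotypes of each library are shown, and each one held mixed and T-only barcodes. The letters are nucleotides of the assembled contigs, 5′ to 3′, with the first and last codon in capitals.
rhIL-7-hyFc clonotype 1 β: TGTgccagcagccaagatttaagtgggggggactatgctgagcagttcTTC
rhIL-7-hyFc clonotype 1 α: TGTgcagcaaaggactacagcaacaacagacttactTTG
rhIL-7-hyFc clonotype 2 β: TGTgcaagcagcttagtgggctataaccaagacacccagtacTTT
rhIL-7-hyFc clonotype 2 α: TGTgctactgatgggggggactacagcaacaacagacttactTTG
rhIL-7-hyFc clonotype 3 β: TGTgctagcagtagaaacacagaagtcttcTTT
rhIL-7-hyFc clonotype 3 α: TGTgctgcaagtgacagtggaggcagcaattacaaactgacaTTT
combination clonotype 1 β: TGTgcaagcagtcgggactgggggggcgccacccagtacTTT
combination clonotype 1 α: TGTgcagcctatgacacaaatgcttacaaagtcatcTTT
combination clonotype 2 β: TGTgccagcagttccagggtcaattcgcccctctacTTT
combination clonotype 2 α: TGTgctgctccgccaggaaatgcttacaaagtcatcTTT
combination clonotype 3 β: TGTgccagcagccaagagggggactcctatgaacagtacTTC
combination clonotype 3 α: TGTgctctgggtgagaatgccccacgaTTT

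Of the 176 barcodes of rhIL-7-hyFc clonotype 1, 30 were mixed and 134 T-only. Clonotype 2 had 17 mixed and 79 T-only barcodes of 100, and clonotype 3 had 16 and 50 of 70. Clonotype 3 was also found in the combination library, in 14 barcodes, of which 0 were mixed. The largest clonotype of the combination library had 496 barcodes, of which 18 were mixed and 475 T-only. Its clonotypes 2 and 3 had 6 mixed of 181 and 8 mixed of 172. Mixed barcodes thus made up a larger part of the leading clonotypes in the rhIL-7-hyFc library, 17.05%, 17% and 22.9%, than in the combination library, 3.63%, 3.31% and 4.65%, as they did of all T-gated barcodes.

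Clonotyped mixed barcodes belonged to larger clonotypes than T-only barcodes. Clonotypes of at least 5 barcodes held 49.8% (46.6 to 53.0) of mixed and 33.8% (32.5 to 35.1) of T-only barcodes with rhIL-7-hyFc, and 55.5% (47.0 to 63.7) and 40.4% (39.3 to 41.6) with the combination. Clonotypes of 1 barcode held 40% of mixed and 59.7% of T-only barcodes, and 30.1% and 51.4%. The intervals treat barcodes as independent, which barcodes of the same clonotype are not, so they do not test the difference between the classes. The 10 largest clonotypes held 12.4% of mixed and 11.1% of T-only barcodes with rhIL-7-hyFc, with overlapping intervals, and 30.1% (22.8 to 38.3) and 17.99% (17.1 to 18.9) with the combination. A T-only barcode of the same clonotype existed for 58.0% and 68.5% of clonotyped mixed barcodes, and for 96.6% and 98.04% of those in clonotypes of at least 2. Clonotyped T-only barcodes numbered 5015 and 7039, against 990 and 146 mixed ones, so most larger clonotypes would hold a T-only barcode in any case. No baseline for this sharing was computed.

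Gene levels were then compared over counts summed per library and class, in CPM (counts scaled so that every pool has the same total), with genes of at least 5 CPM in 1 of the pools. These differences describe how the classes look and are no test, since the rule chose them on genes of the same barcodes. With rhIL-7-hyFc, 12.8% of 9387 genes were at least 1.5-fold higher in mixed than T-only barcodes and 7.29% lower, 20.1% in all. With the combination the shares of 9370 genes were 9.78%, 9.69% and 19.5%; with TMM factors, which scale libraries to their common genes, 1013 were higher and 601 lower there, in place of 916 and 908. The median gene had a log2 difference of -0.10 and -0.16. Within mixed barcodes the combination differed from rhIL-7-hyFc at 6.55% of 9231 genes, 1.51% higher and 5.05% lower. Gene lists below are counted against these shares.

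All 18 macrophage genes outside the rule were higher in mixed than in T-only barcodes in both libraries, by a median log2 difference of 4.39 in the rhIL-7-hyFc library and 5.83 in the combination library. Apoe, a lipid carrier, stood at 648 CPM in mixed and 11.6 CPM in T-only barcodes with rhIL-7-hyFc, 55.8-fold higher (51.3 to 60.9), and at 747 and 1.67 CPM with the combination. Cd68, a lysosomal protein of macrophages, was 14.9-fold and 14.5-fold higher. Fcgr1, an activating receptor for antibody, had 559 CPM in mixed, 18.4 in T-only and 1631 in myeloid barcodes with rhIL-7-hyFc, and 297, 1.25 and 591 with the combination. The other 3 Fc receptors of the list, Fcgr2b, Fcgr3 and Fcgr4, were also at least 1.5-fold higher in both libraries. Measured against myeloid barcodes, the macrophage genes of mixed barcodes had a median of 42.0% of the CPM and 132% of the UMIs per barcode with rhIL-7-hyFc, and 49.7% and 168% with the combination. The CPM shares ranged from 26.4% to 118.5% and from 17.9% to 251%. Of the 18 genes, Pf4 was higher in the mixed than in the myeloid pool with rhIL-7-hyFc, and Pf4, Ms4a7, Aif1 and Spp1 with the combination; Ms4a7 had 95.4 CPM in mixed and 37.98 in myeloid barcodes there.

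Genes of antigen presentation and of macrophage secretion were also higher in mixed than in T-only barcodes. Of the MHC class II list, 8 of 8 measured genes were higher with rhIL-7-hyFc (median log2 2.74) and 7 of 7 with the combination (3.92). Cd74, the invariant chain, had 3578 CPM in mixed, 389 in T-only and 7721 in myeloid barcodes with rhIL-7-hyFc, and 2662, 127 and 7743 with the combination. Of the myeloid cytokines and chemokines, 14 of 15 and 14 of 14 measured genes were higher. Ccl2, which attracts monocytes, had 1196 CPM against 41.0 in T-only barcodes with rhIL-7-hyFc, and 831 against 1.46 with the combination. Complement genes other than C1q, such as C3ar1 and Cfb, were higher at 4 of 4 in both. Of the lysosome and scavenging list, 17 of 19 and 16 of 19 were higher and 0 lower.

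**Figure D4:**
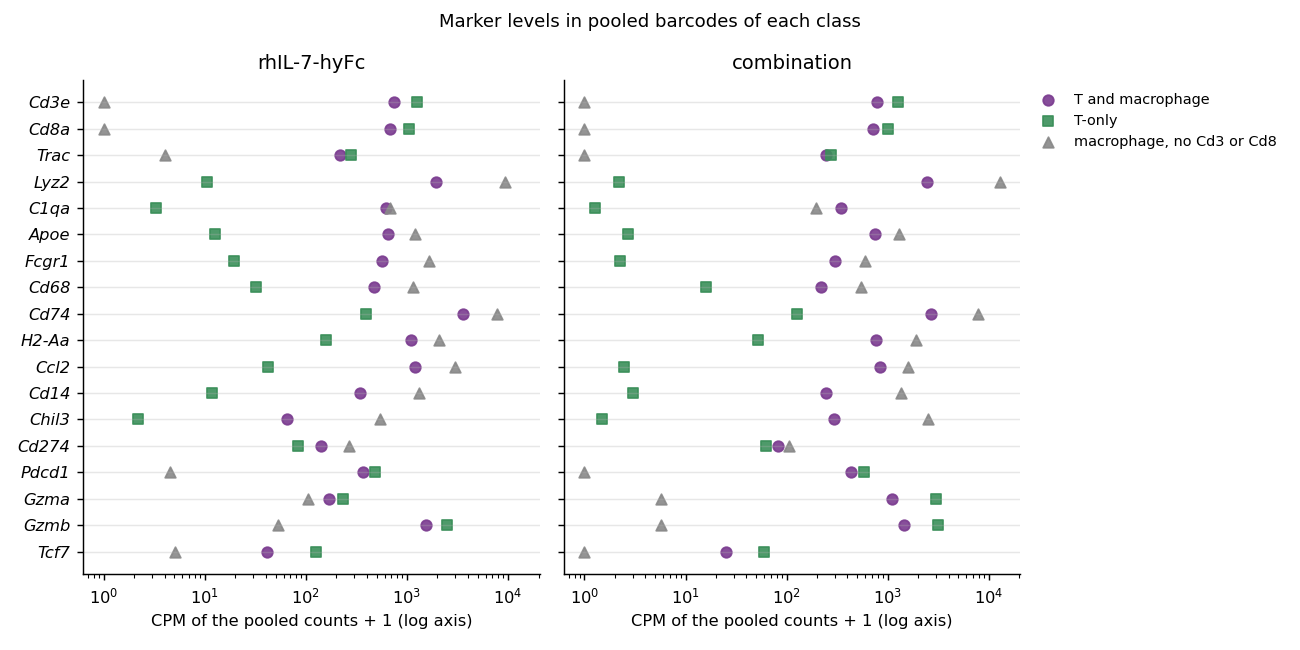
CPM plus 1 (log axis) of 18 genes in pooled mixed, T-only and myeloid barcodes of each library. For Apoe, Fcgr1 and Cd74 the mixed pool lies between T-only and myeloid pools, while Cd274 spans 61.9 to 268 CPM over all 6 pools. C1qa, a gene of the rule, is higher in the mixed than in the myeloid pool with the combination.

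T cell genes were lower in CPM and higher per barcode in mixed barcodes. Of the 20 T cell identity genes, 16 were at least 1.5-fold lower in CPM in the rhIL-7-hyFc library and 15 in the combination library, with median log2 differences of -0.77 and -0.73. In UMIs per barcode the median gene was 1.59 times (range 1.19 to 2.30) and 1.57 times (1.18 to 2.59) the T-only value, and 20 of 20 were higher. Trac, the constant segment of the α chain, had 217 CPM in mixed and 277 in T-only barcodes with rhIL-7-hyFc, but 3.88 and 1.83 UMIs per barcode. With the combination Trac had 245 and 277 CPM, and 4.84 and 2.09 UMIs per barcode. Scaling to the summed T cell identity genes moves all differences up by that list's own deficit, after which 5085 genes passed 1.5-fold upwards and 30 downwards with rhIL-7-hyFc, in place of 1200 and 684. With the combination 3832 were higher and 51 lower.

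Many naive and memory genes were lower in CPM in mixed than in T-only barcodes, as the T cell identity genes were. Of 18 measured, 10 were lower and 1 higher with rhIL-7-hyFc, and of 17, 10 and 1 with the combination. The median log2 differences of the list, -0.77 and -0.68, were close to those of the T cell identity genes, -0.77 and -0.73. Tcf7, a transcription factor of naive and stem-like T cells, had 39.8 CPM in mixed and 124.5 in T-only barcodes with rhIL-7-hyFc, 3.12-fold lower, and 24.1 and 59.4 CPM with the combination. Its UMIs per barcode were 0.714 and 0.820 with rhIL-7-hyFc and 0.476 and 0.449 with the combination. Ccr7, a lymph node homing receptor, had 247 and 622 CPM with rhIL-7-hyFc, and 162 and 409 CPM with the combination. Lef1, a partner of Tcf7, was 2.96-fold and 2.48-fold lower.

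By list median, exhaustion and cytotoxicity genes were less reduced in CPM than the T cell identity genes. Their median log2 differences were -0.34 and -0.45 with rhIL-7-hyFc, and -0.39 and -0.56 with the combination. The T cell identity medians in these libraries were -0.77 and -0.73. Exhaustion genes summed to 2373 and 2933 CPM in T-only and to 499 and 468 CPM in myeloid barcodes. For cytotoxicity genes the sums were 13241 and 17653, and 1495 and 161 CPM. For T cell identity genes they were 6026 and 5960, and 105 and 26.1 CPM. The part of macrophage RNA in the smaller reductions was not tested. Of 12 exhaustion genes 1 was lower in the rhIL-7-hyFc library and 3 in the combination library. Pdcd1 had 366 and 484 CPM in mixed and T-only barcodes with rhIL-7-hyFc, and 431 and 576 CPM with the combination, in UMIs per barcode 6.56 and 3.19, then 8.51 and 4.35. Of the cytotoxicity list 5 of 15 and 8 of 16 genes were lower and 0 higher. Gzmb, which triggers death of target cells, had 1536 and 2463 CPM with rhIL-7-hyFc and 1461 and 3112 CPM with the combination. Gzma had 169 CPM in mixed and 232 in T-only barcodes with rhIL-7-hyFc, and 1111 and 3007 CPM with the combination, where its UMIs per barcode were 21.9 and 22.7.

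In CPM, proliferation genes did not set mixed barcodes apart with rhIL-7-hyFc. There 0 of 20 S phase and 0 of 21 G2 and mitosis genes passed 1.5-fold, and Mki67 had 70.8 and 69.3 CPM. With the combination 10 of 20 and 2 of 21 were lower, and Mki67 had 75.7 and 86.4 CPM. The median log2 differences of the 2 lists were -0.34 and -0.098 with rhIL-7-hyFc, and -0.57 and -0.32 with the combination. Scaled to the summed T cell identity genes, which raises all genes, these medians were 0.38 and 0.62, and 0.085 and 0.33. Early response and interferon genes were higher in part. Of 15 AP-1 and heat shock genes 7 were higher in both libraries, among them Fos, with 864 CPM in mixed, 140 in T-only and 2270 in myeloid barcodes of the rhIL-7-hyFc library. Of 21 type I interferon response genes 12 and 10 were higher. Isg15, a secreted interferon-induced modifier, had 3376, 1177 and 7469 CPM in the same order with rhIL-7-hyFc, and 2117, 770 and 3060 CPM with the combination.

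PD-L1 is a target of the engager, so its gene is given for every class. Cd274 had 138.8 CPM (135.8 to 141.9) in mixed, 83.3 in T-only and 268 in myeloid barcodes with rhIL-7-hyFc. With the combination it had 81.3 CPM (76.6 to 86.2), 61.9 and 104. Per barcode this was 2.49, 0.549 and 1.53 UMIs, and 1.60, 0.467 and 0.611 UMIs. The order of the classes was the same in both libraries, and each class was lower with the combination. Of the 12 checkpoint ligands and costimulators, 8 of 11 measured were higher in mixed than T-only barcodes with rhIL-7-hyFc and 5 of 10 with the combination.

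Markers of other cells were few. With rhIL-7-hyFc, none of the fibroblast, tumour epithelial, erythroid or mast cell and basophil lists had a gene at 5 CPM in mixed or T-only barcodes, and their sums in mixed barcodes were 2.93, 2.31, 0.0520 and 0.694 CPM. The same 4 lists had no gene at 5 CPM with the combination, with sums of 0.795, 2.10, 0.0723 and 0.361 CPM. The B cell list summed to 5.59 and 2.75 CPM. The dendritic cell list summed to 88.6 CPM in mixed and 110 in T-only barcodes with rhIL-7-hyFc, and to 51.0 and 79.1 CPM with the combination. Of its 5 measured genes 2 were higher and 3 lower in mixed barcodes of the rhIL-7-hyFc library, and of 4 in the combination library 1 was higher and 2 lower. Fscn1, a gene of mature dendritic cells, was 2.83-fold and 3.22-fold lower, and Batf3, a transcription factor of dendritic cells and activated T cells, 3.41-fold and 2.45-fold higher. The neutrophil list was higher at 4 of 4 measured genes in both libraries and summed to 118 against 34.8 CPM, and 137 against 4.67 CPM. The part of these cells in the differences was not tested.

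Lists on the contact between T cells and presenting cells had median CPM differences near that of all genes. Of 12 adhesion genes of that contact, 2 were higher and 3 lower in mixed than T-only barcodes of the rhIL-7-hyFc library (median log2 -0.21), and 1 and 3 in the combination library (-0.30). Of 18 early genes of T cell receptor signalling 5 were higher and 2 lower in each library, with medians of -0.21 and -0.05. Scaled to the summed T cell identity genes, which raises all genes, the adhesion medians were 0.51 and 0.35 and the early medians 0.51 and 0.60. The early list summed to 5193 and 3041 CPM in myeloid barcodes, against 3254 and 2613.5 CPM in T-only barcodes. The part of macrophage RNA in its higher genes was not tested. Of 21 interferon-γ response genes 3 were higher and 0 lower in each. The macrophage activation list was higher at 8 of 9 measured genes in both libraries. NK cell and CD4 T cell lists had 0 genes higher, and the endothelial list 1 of 2.

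Within mixed barcodes, genes of the macrophage list and of some T cell lists differed between the libraries. Of the 18 macrophage genes 11 were at least 1.5-fold lower and 1 higher in the combination than in the rhIL-7-hyFc library, with a median log2 difference of -0.61. That median was -0.32 among barcodes with a β contig only and -0.35 without the 5% of barcodes with most UMIs. None of the 20 T cell identity genes passed 1.5-fold (median log2 0.08), while 7 of 18 naive and memory genes were lower and 0 higher, and 4 of 16 cytotoxicity genes were higher and 2 lower. Ms4a7, a gene of mature macrophages, had 304 and 95.4 CPM, 3.18-fold lower (3.01 to 3.37). Gpnmb, a lysosomal glycoprotein, was 2.96-fold lower, and the F4/80 gene Adgre1 2.40-fold lower. Pf4, a chemokine gene of some macrophages, was the exception in the list, 2.83-fold higher.

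Part of the monocyte list was higher with the combination. Of 8 genes, 4 were higher and 1 lower in mixed barcodes of the combination library (median log2 0.47, and 0.86 and 0.88 under the same restrictions). The list's sum was lower, 5575 CPM with rhIL-7-hyFc and 4396 CPM with the combination, and Ly6c2, a surface protein of monocytes and of CD8 T cells, was 1.56-fold lower. Chil3, a chitinase-like protein of monocytes, had 64.0 CPM in mixed barcodes of the rhIL-7-hyFc library and 293 CPM in those of the combination library, 4.57-fold higher (4.37 to 4.78). Fn1, F13a1 and Vcan were 3.36-fold, 2.21-fold and 2.14-fold higher. In myeloid barcodes, which lack Cd3 and Cd8 UMIs, Chil3 had 536 and 2497 CPM and Ms4a7 385 and 37.98 CPM, so both had the same direction there. The neutrophil list was higher at 6 of 8 genes in the myeloid pool of the combination library, with sums of 400.3 CPM with rhIL-7-hyFc and 2585 CPM with the combination, and its part in these differences was not tested. The myeloid pool of the combination library rests on 72 barcodes, and 38.6% of 8421 genes passed 1.5-fold in that comparison.

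Several further lists were lower with the combination at part of their genes in mixed barcodes. Of the lysosome and scavenging genes 9 of 19 were lower and 0 higher, among them Lgmn, a lysosomal protease, with 631 and 251 CPM. Of the chemokines and cytokines 7 of 15 were lower and 1 higher: Ccl12 had 575 and 213 CPM and Ccl7 606 and 245 CPM. The macrophage activation list had 2 genes higher and 2 lower of 9, the neutrophil list 1 and 1 of 4, and the MHC class II list 0 of 8 in either direction. Complement genes were lower at 3 of 4. Type I interferon response genes were lower at 7 of 21 with 0 higher (median log2 -0.48). In T-only barcodes 6 of these 21 were lower with the combination and 0 higher (-0.43), so that difference was not particular to mixed barcodes. Arg1, an enzyme that depletes arginine, was 1.66-fold higher, and Cxcl9, a chemokine that attracts CD8 T cells, had 108 and 87.5 CPM.

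On the T cell side, the granzyme genes Gzma and Gzmk were higher and Gzmm and Gzmc lower in mixed barcodes of the combination library. Gzma was 6.58-fold higher (6.41 to 6.75) in mixed barcodes of the combination library and 12.97-fold higher (12.7 to 13.2) in its T-only barcodes. Gzmk was 3.28-fold and 4.499-fold higher, and in mixed barcodes Gzmm was 2.91-fold and Gzmc 1.74-fold lower. Gzmb had 1536 and 1461 CPM in mixed barcodes, and Ifng, which activates macrophages, 125.2 and 124.0 CPM. Tcf7 was 1.65-fold lower in mixed and 2.09-fold lower in T-only barcodes. T-only barcodes of the libraries differed at 4.3% of 9019 genes, 1.22% higher and 3.08% lower. Whether these library differences were unlike between mixed and T-only barcodes was not tested.

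**Figure D5:**
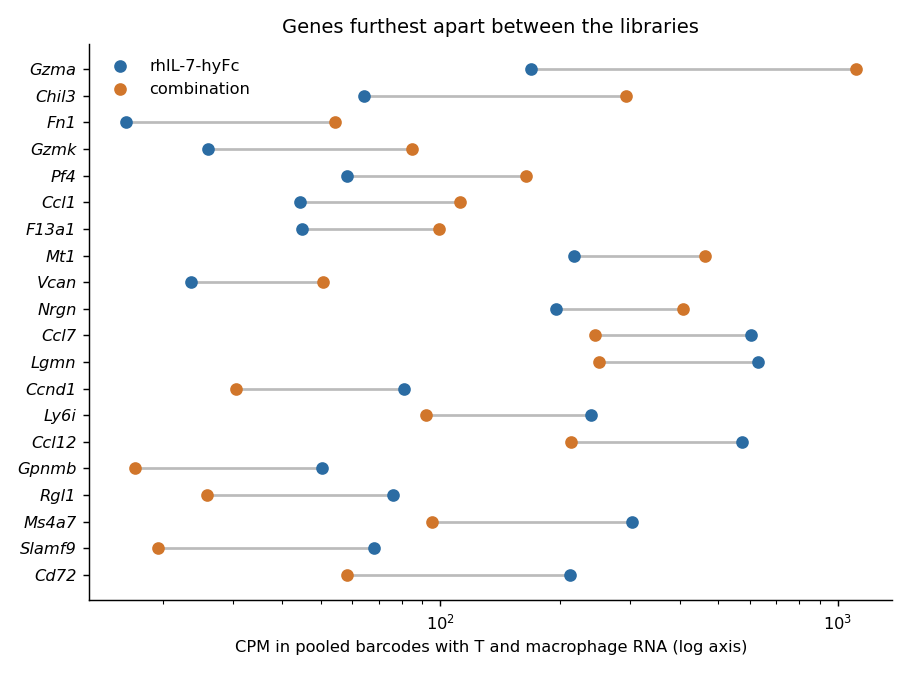
CPM (log axis) in pooled mixed barcodes of the rhIL-7-hyFc and combination libraries for the 10 genes furthest higher and the 10 furthest lower in the combination, among genes with at least 50 CPM in 1 pool. Gzma and Chil3 lead the higher end, at 1111 and 293 CPM with the combination, and Cd72 and Slamf9 the lower end, at 58.3 and 19.4 CPM.

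The other genes at the ends of that comparison were of mixed kind. Ccl1, a chemokine gene, had 44.4 CPM in mixed barcodes of the rhIL-7-hyFc library and 112 CPM in those of the combination library, a log2 difference of 1.31 that became -0.12 without the 5% of T-gated barcodes with most UMIs. Mt1, a metal-binding protein, was 2.14-fold higher and Nrgn 2.09-fold. Cd72 had 212 and 58.3 CPM, 3.64-fold lower, and Slamf9 68.1 and 19.4 CPM. Ccnd1, which drives entry into the cell cycle, had 80.8 and 30.7 CPM.

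The makeup of mixed barcodes varied with the amount of macrophage RNA. With rhIL-7-hyFc, the 287 mixed barcodes with 5 to 9 myeloid UMIs had medians of 12012 UMIs, 101 UMIs of the macrophage list and 12 of the MHC class II list. The 921 with at least 100 had medians of 19809, 230 and 107. Over the same steps the median Cd3 UMIs were 35 and 49, and the share with a β contig was 44.6% (38.8 to 50.6) and 34.9% (31.8 to 38.03). At least 2 Trbv subgroups were present in 35.2% (29.7 to 41.0) and 57.7% (54.4 to 60.9). With the combination the 53 barcodes at the low step and the 197 at the high step had medians of 11772 and 20763 UMIs, and at least 2 Trbv subgroups in 45.3% (31.6 to 59.6) and 62.4% (55.3 to 69.2), with overlapping intervals. The myeloid UMIs that set these steps rise with depth, and the part of depth in the trend was not tested.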

How the data were processed

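Raw UMI counts per gene and barcode were deposited by the authors as filtered 10x matrices, made with Cell Ranger 6.1.2 for the libraries compared here and 4.0.0 for the earlier experiment, on GRCm38, per the submitters' processing notes and the file headers. T cell receptor contigs came with the deposited contig tables as UMI counts per contig; the version that made them is not stated in any source used. Barcodes were classed by the rule in the opening. No doublet caller was run and no doublets were removed, because barcodes with RNA of more than 1 cell type are the subject.

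Counts were summed over the barcodes of a class and library, scaled to CPM, and compared as log2(CPM + 1) for genes with at least 5 CPM in 1 pool; this scale understates differences of low genes. Fold intervals are exact conditional binomial intervals, CPM intervals exact Poisson and share intervals Clopper-Pearson, all at 95%. With 1 library per treatment there was no test between treatments and no p-value. Named genes were the rule genes, a set list, the 3 largest differences of each gene list, and the 10 highest and 10 lowest genes of each comparison with at least 50 CPM; a few list members outside this rule are named as examples and were chosen after their values were seen. The members and the 31 gene lists were chosen with earlier results of these data known. Alternatives changed the myeloid and T cell thresholds, the depth, contig and quality filters, the scaling, the pseudocount, the CPM minimum and the clonotype definition; leaving out the barcodes found in both libraries was chosen after seeing the data. The pooling was tested on simulated data. Python 3.11.15, numpy 2.4.6, pandas 2.3.3, scipy 1.17.1, matplotlib 3.10.9, R 4.3.3 and edgeR 4.0.16 (TMM factors only) were used.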

Additional observations from a re-analysis of the deposited data

Results flagged for a closer look

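For 2 genes the difference between the libraries had opposite signs in mixed and T-only barcodes, and the difference between those differences was not tested. Itgax, an integrin gene of myeloid cells that some activated CD8 T cells also express, had a log2 difference of the combination over rhIL-7-hyFc of -0.98 in mixed barcodes and 1.35 in T-only barcodes. Its levels were 34.5 and 16.99 CPM in mixed barcodes and 7.69 and 21.2 CPM in T-only barcodes. S100a8, a gene of neutrophils and monocytes, had log2 differences of 1.00 in mixed and -2.47 in T-only barcodes. S100a8 stood at 30.4 and 61.8 CPM in mixed, 9.41 and 0.875 CPM in T-only, and 74.3 and 995 CPM in myeloid barcodes.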

How the results depend on the processing

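No paired analysis was possible because each treatment was 1 library, and for the same reason no replicate could be left out. Each list median and named gene past 1.5-fold was set against its value under each of 18 alternatives that recompute it; the sign was the same in 616 of 626 such pairs for list medians and in 5846 of 5860 for genes, and the causes of the shifts below were not tested. The share of mixed barcodes with rhIL-7-hyFc was 31.6% at 3 or more myeloid UMIs, 27.0% at 10 or more, 19.7% without Lyz2 in the sum, 27.0% at 2000 UMIs per barcode, 17.3% with a β contig only and 26.4% without the 5% of most UMIs. With the combination it was 5.95% at 10 or more, 3.88% without Lyz2, 5.77% at 2000 UMIs, 2.32% with a β contig only and 3.39% without the 5%; the ratio of the libraries was 7.46 and 7.78 under the last pair. Mixed barcodes without a β contig were 66.6% (no Lyz2), 61.3% (2000 UMIs), 67.2% (without barcodes of 2 or more β chains) and 57.6% (without the 5%) with rhIL-7-hyFc, and 77.9% and 52.4% under the last pair with the combination. Those with 2 or more Trbv subgroups were 54.2% (no Lyz2), 18.8% (β contig only) and 43.6% (without the 5%), and 16.2% and 36.8% with the combination. The ratio of median UMIs was 2.87 (2000 UMIs, classes redrawn), 2.35 (β contig only) and 2.79 (without the 5%), and 2.05 and 2.11. Clonotypes defined by the β chain alone put 56.3% and 63.7% of clonotyped mixed barcodes in clonotypes of 5 or more. That share was not computed for T-only barcodes.

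For mixed over T-only barcodes, genes higher and lower numbered 5085 and 30 with rhIL-7-hyFc and 3832 and 51 with the combination when scaled to T cell identity genes, and 740 and 404, and 534 and 511, at 20 CPM, where fewer genes enter. With no CPM minimum 1434 were higher with the combination. Lower genes numbered 1029 and 1910 with a β contig only, and with the combination 1740 without the 5% and 601 with TMM factors. The T cell identity median was -0.68 (no Lyz2), -0.72 (2000 UMIs), -0.96 (β contig only), -0.70 (TMM), -0.88 (mean over barcodes) and -0.051 (scaled to itself) with rhIL-7-hyFc, and -1.05 (β contig only), -0.89 (without the 5%), -0.64 (TMM), -0.83 (mean over barcodes) and -0.075 (scaled to itself) with the combination. For the combination over rhIL-7-hyFc in mixed barcodes, higher genes numbered 310 (β contig only), 69 (20 CPM) and 251 (no minimum), and lower genes 273 (20 CPM). The macrophage median was -0.32 and -0.35, and the monocyte median 0.86 and 0.88, with a β contig only and without the 5%.

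Signs turned for the dendritic cell list with rhIL-7-hyFc (1.10 with a β contig only, 0.78 as a mean over barcodes, 0.28 at 20 CPM) and, with no CPM minimum, for the dendritic (0.0054) and B cell (0.037) lists with the combination. The endothelial list with the combination turned to -0.36 (2000 UMIs), -0.37 (β contig only), -0.46 (without the 5%), -0.51 (mean over barcodes) and -0.028 (no minimum). Scaled to T cell identity genes, which by construction raises T cell genes, Cd3d (0.10), Cd3g (0.12), Cd8a (0.10), Gzmb (0.039), Cd160 (0.0052) and Selplg (0.12) turned with rhIL-7-hyFc, and Cd8b1 (0.014), Lag3 (0.060), Rpa2 (0.029), Izumo1r (0.069) and Icam2 (0.059) with the combination. Ccl1 turned over T-only barcodes with the combination to -0.26 (β contig only) and -0.80 (without the 5%), and between libraries to -0.12 (without the 5%).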

Other observations

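In an earlier experiment of the series, CD8 T cells were enriched with magnetic beads from MC38 tumours 7 days after buffer or 10 mg/kg rhIL-7-hyFc, 1 library each, and the same rule was applied. It found 145 mixed barcodes among 3734 T-gated barcodes with buffer, 3.88% (3.29 to 4.55), and 73 among 5584 with rhIL-7-hyFc, 1.31% (1.03 to 1.64). Barcodes with 2 to 4 myeloid UMIs made up 14.1% and 1.52%. The mixed barcodes of the buffer library had a median of 5 Cd3 UMIs against 36 in T-only barcodes, and 1 Trbv UMI against 10. With rhIL-7-hyFc the medians were 27 against 34 Cd3 UMIs and 7 against 15 Trbv UMIs. Median UMIs per barcode were 12475 in mixed and 8489 in T-only barcodes with buffer, and 18300 and 9695 with rhIL-7-hyFc. Selection, dose and time differ from the sorted libraries, so no comparison across the experiments was made.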
